A study of Mus musculus with 17 samples.

Results

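Mouse pancreatic stellate cells kept in medium conditioned by pancreatic tumour organoids with 300 nM neratinib were compared with the same cells kept in control medium. The comparison holds 9 of the 17 libraries of the study, chosen by their labels: 4 libraries of the neratinib medium and 5 of the control medium. All libraries came from wild-type cells of strain C57BL/6J, of lines named PSC4 and PSC5, which lay in Matrigel (a gelled extract of basement membrane) during the 4 days of treatment. The neratinib group had PSC4 at passages 23 and 24 and PSC5 at passages 27 and 28, and the control group had the same passages and PSC4 at passage 25. The agents in the labels are control media for the one group and conditioned media with an ERBB inhibitor for the other, and the labels also give each conditioned medium a code, T6 or T8, without saying what it stands for. The nearest other group was conditioned medium without the inhibitor (4 libraries, called CM here, same lines, passages and codes), and 4 libraries with TGF-beta at 20 ng/mL entered the fit, and so the filter, the scaling, the line term and the estimate of the spread, but are not compared here. No library of control medium with neratinib was analysed here, so the comparison with control holds the medium and the inhibitor together. The labels do not say that libraries of a line came from separate cultures, and the p-values measure the spread between these libraries.

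Stellate cells are the retinoid-storing fibroblasts of the pancreas and a source of the fibroblasts that surround pancreatic tumours. Transforming growth factor beta turns them into contractile, collagen-making myofibroblasts, whereas interleukin-1 and other tumour signals act through NF-kB and JAK/STAT3 to give a state that secretes interleukin-6, chemokines and acute phase proteins. Neratinib binds covalently to the kinases EGFR, ERBB2 and ERBB4, the receptors of the epidermal growth factor and neuregulin ligands, which signal in large part through the kinase ERK. ATF4 is the transcription factor of the integrated stress response: its translation rises when the initiation factor eIF2-alpha is phosphorylated, and it switches on genes for amino acid uptake and synthesis. Type I interferon acts through JAK kinases and a complex with IRF9 that binds the interferon-stimulated response element (ISRE) of their target genes.

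The library totals were 22168953 to 25967713 counts with neratinib and 24420959 to 26891479 in control. All 12 fibroblast and stellate markers passed the filter on low counts, but so did 15 of 16 epithelial markers. The summed level of the fibroblast and stellate markers was 4525 to 7141 CPM with neratinib and 6283 to 7646 CPM in control (CPM, the count scaled to a common library total). Of these 12, 4 were called lower with neratinib and 2 higher (33.3% and 16.7%, against 20.9% and 22.2% of all tested genes). Of 12 leukocyte markers, Ptprc, Adgre1, Tyrobp, Itgam and Cd3e were among those that had 3 counts or fewer in every library of both groups, and 11 of 12 acinar and endocrine markers did as well. The summed leukocyte markers were nevertheless higher with neratinib, at 35.4 to 66.1 CPM against 15.4 to 19.1 CPM in control, with no overlap. Of the 4 tested, Cd14, a co-receptor for bacterial lipopolysaccharide that was the most abundant, rose (log2 fold change 1.95, SE 0.22, adjusted p 1.41e-05) and 3 were not called (median 0.92). Their part in the inflammatory results was not tested. The libraries did not all follow their line label. A score from 532 genes higher in PSC4 and 288 higher in PSC5, chosen in the other 14 libraries, was 2.06 to 2.48 in the libraries of PSC4 replicates 2 and 3 and -1.19 to -0.42 in PSC5. The 3 libraries with the label PSC4 replicate 1, which are of the control, CM and neratinib groups, had -1.06 to -0.53, within the PSC5 range.

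Transcripts that mark epithelial cells were present in libraries of the conditioned media. Of 16 epithelial markers, 15 were tested, 13 were called higher with neratinib than in control and 1 lower, with summed levels of 38.7 to 358 CPM against 80.0 to 96.3 CPM. In the neratinib libraries, in the order PSC4 replicates 1 and 2 and PSC5 replicates 1 and 2, Krt8, a keratin of simple epithelia, had 0, 37.8, 9.47 and 94 CPM, and in the 5 control libraries 0, 0, 0, 0 and 0.0709 CPM. Krt8 was thus high in both libraries with the T6 medium (replicate 2), lower in PSC5 with T8 and at 0 counts in the library labelled PSC4 replicate 1 with T8. Epcam, an epithelial adhesion molecule, had 0.0426, 3.23, 0.821 and 7.29 CPM in the same order and 0 to 0.176 CPM in control. The Y-linked transcript Eif2s3y had 7 and 16 counts in the neratinib libraries with T6, 5 and 14 in the CM libraries with T6, and 0 in all T8 and control libraries. Ddx3y, also Y-linked, had 9 and 11 counts in the neratinib libraries with T6, and 0 in those with T8 and in 4 of the 5 control libraries. Other Y-linked transcripts were not limited to T6: Kdm5d had 18 and 22 counts in the neratinib libraries with T6, 6 and 16 in those with T8 and 6 to 16 in the 5 control libraries. Uty had 7 and 6 counts with T6, 2 and 1 with T8 and 0 to 2 in control. Krt18, also a keratin of simple epithelia, had 2.29 to 7.72 CPM of the library total in the TGF-beta libraries, which had no conditioned medium. In the neratinib libraries with T6 it had 26.2 and 69.1 CPM, and in control 0.187 to 0.614 CPM. Whether the epithelial and Y-linked transcripts came from other cells or from the stellate cells was not tested. The part that such transcripts have in the results below was not tested. All counts were therefore also computed with the T8 media alone. All T8 libraries are replicate 1, so the code cannot be told apart from replicate number or passage. The T8 libraries of both line labels had the PSC5 pattern, while the controls kept PSC4 replicates 2 and 3. Epithelial transcripts also remained in the T8 library of PSC5 with neratinib, with Krt8 at 9.47 CPM.

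**Figure D1:**
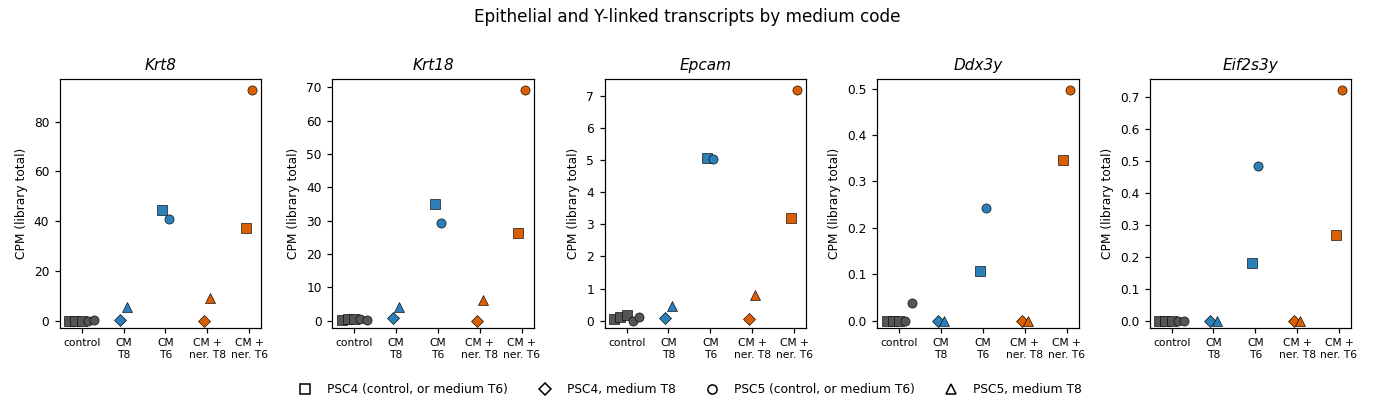
Level of 3 epithelial transcripts and 2 Y-linked transcripts in each library, in CPM of the library total on a linear axis, by group and by the code of the conditioned medium. Every point is a library. The 4 libraries with the T6 medium hold the highest values of all 5 transcripts, and the neratinib library of PSC4 with T8 is at 0 for Krt8.

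Promoter sequences are shown first for 6 genes of the 3 gene lists for which motif shares were counted. The other lists were not compared for motif content. They are the 200 bases before the annotated start (RefSeq, GRCm38.p6), 5′ to 3′ on the strand of the gene. Slc7a11 and Asns stand for the ATF4 group, and capitals mark TGATGNAA, the half-sites of C/EBP and ATF factors joined, on either strand. Il6 and Cxcl1 stand for the cytokines, and capitals mark GGGANTTTC or GGGGNTTTC, the NF-kB element. Ifit3b and Isg15 stand for the interferon group, and capitals mark TTTCNNTTT, the core of the ISRE, on either strand.
Slc7a11 (chr3:50443614-50443813, minus strand): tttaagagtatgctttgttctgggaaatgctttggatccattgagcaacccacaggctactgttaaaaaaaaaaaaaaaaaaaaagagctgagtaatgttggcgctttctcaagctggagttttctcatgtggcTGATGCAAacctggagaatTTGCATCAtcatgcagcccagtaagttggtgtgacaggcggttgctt
Asns (chr6:7693210-7693409, minus strand): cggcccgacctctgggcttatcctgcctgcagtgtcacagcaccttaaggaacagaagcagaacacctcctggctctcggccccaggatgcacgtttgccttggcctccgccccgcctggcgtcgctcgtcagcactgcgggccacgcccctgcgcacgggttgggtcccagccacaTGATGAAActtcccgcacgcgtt
Il6 (chr5:30012914-30013113, plus strand): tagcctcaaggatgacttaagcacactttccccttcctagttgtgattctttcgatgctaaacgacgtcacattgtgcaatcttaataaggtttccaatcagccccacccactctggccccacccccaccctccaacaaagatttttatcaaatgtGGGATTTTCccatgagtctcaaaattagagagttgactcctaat
Cxcl1 (chr5:90891045-90891244, plus strand): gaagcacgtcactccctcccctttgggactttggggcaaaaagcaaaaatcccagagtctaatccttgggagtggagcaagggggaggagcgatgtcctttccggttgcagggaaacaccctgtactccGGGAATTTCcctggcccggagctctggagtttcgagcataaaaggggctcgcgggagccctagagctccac
Ifit3b (chr19:34607757-34607956, plus strand): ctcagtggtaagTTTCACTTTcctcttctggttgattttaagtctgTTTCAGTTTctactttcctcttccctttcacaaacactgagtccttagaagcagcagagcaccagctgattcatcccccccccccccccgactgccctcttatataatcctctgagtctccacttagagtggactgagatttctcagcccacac
Isg15 (chr4:156200819-156201018, minus strand): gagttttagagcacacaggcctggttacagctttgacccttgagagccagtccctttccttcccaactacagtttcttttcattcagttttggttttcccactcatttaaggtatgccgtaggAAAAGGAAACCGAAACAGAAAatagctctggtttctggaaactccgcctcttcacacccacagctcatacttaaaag

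Slc7a11 held 2 C/EBP-ATF matches, which begin 66 and 47 bases before the start, and Asns held 1, at 23 bases. The NF-kB match began 44 bases before the start in Il6 and 71 bases before it in Cxcl1. Isg15 held 3 overlapping ISRE matches, the first 77 bases before the start, and Ifit3b held 2, at 188 and 154 bases. A promoter of 300 bases (250 before and 50 after the start) was found in the RefSeq table for 10444 of 13910 tested symbols, and the motifs were searched on both strands. The C/EBP-ATF motif, which was added after the data had been seen, was in 11 of 30 promoters of the ATF4 list (36.7%) and in 2.86% of those of all tested genes. ISRE was in 20 of 28 promoters of the interferon list (71.4%) against 9.61%, and NF-kB in 6 of 15 of the cytokine list (40%) against 2.55%. The list members were chosen by known function, so these list shares are not a result of the comparison. Among genes called higher by at least 1 on the log2 scale, 13% of 386 promoters held the AP-1 element TGAGTCA or TGACTCA, against 6.52% of 736 among genes called lower by at least 1 and 4.79% of all tested. AP-1 was also in 8 of 28 promoters of the interferon list (28.6%), and ISRE in 12.4% of the higher and 14.5% of the lower genes. C/EBP elements (TTGCGCAA or TTGCNNCAA) were in 3.89%, 0.951% and 2.12% of the higher, the lower and all tested genes. In the same order, NF-kB was in 4.66%, 2.45% and 2.55%, and C/EBP-ATF in 7.77%, 3.53% and 2.86%. The shares over all 32851 promoters of the table were 3.97% for C/EBP-ATF, 10.6% for ISRE, 2.17% for NF-kB, 5.2% for AP-1 and 2.26% for C/EBP. A match is a string of letters, not a measured site.

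Of 13923 genes tested, 5998 differed between neratinib medium and control (43.1%, adjusted p under 0.05, edgeR), which are the genes called here. Higher in neratinib medium were 3085 (22.2%) and lower 2913 (20.9%). Changes of at least 1 on the log2 scale were called for 559 higher genes (4.01%) and 1047 lower genes (7.52%). All neratinib libraries were above all control libraries in 1961 genes (14.1%) and below them in 2137 (15.3%). The largest changes were named only where the groups were apart in each line. The lack of overlap in those genes was thus in large part fixed by the rule. With upper-quartile scaling, which shifted the median of all genes by -0.057, 41.1% of the called genes were higher, against 51.4%. Without the 3 libraries labelled PSC4 replicate 1, 5658 genes were called, and with T8 media alone 4463. Of the 559 genes, 396 were called in the same direction with T8 alone, of 512 that could be tested there, and of the 1047 genes 790. Principal component 1 of the 9 libraries held 50.5% of the variance, with neratinib at -86.6 to -32.9 and control at 34.8 to 49.6, and the most distant library was the one labelled PSC4 replicate 1 in neratinib medium. CM against control, in the same fit and with the same control libraries, gave 1976 called genes (14.2%), 982 higher (7.05%) and 994 lower (7.14%). That count was 1269 when the CM library PSC4 replicate 2 was left out, 801 when it was CM PSC5 replicate 1, and 1204 or 1219 when it was replicate 1 or 2 of the PSC5 controls.

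**Figure D2:**
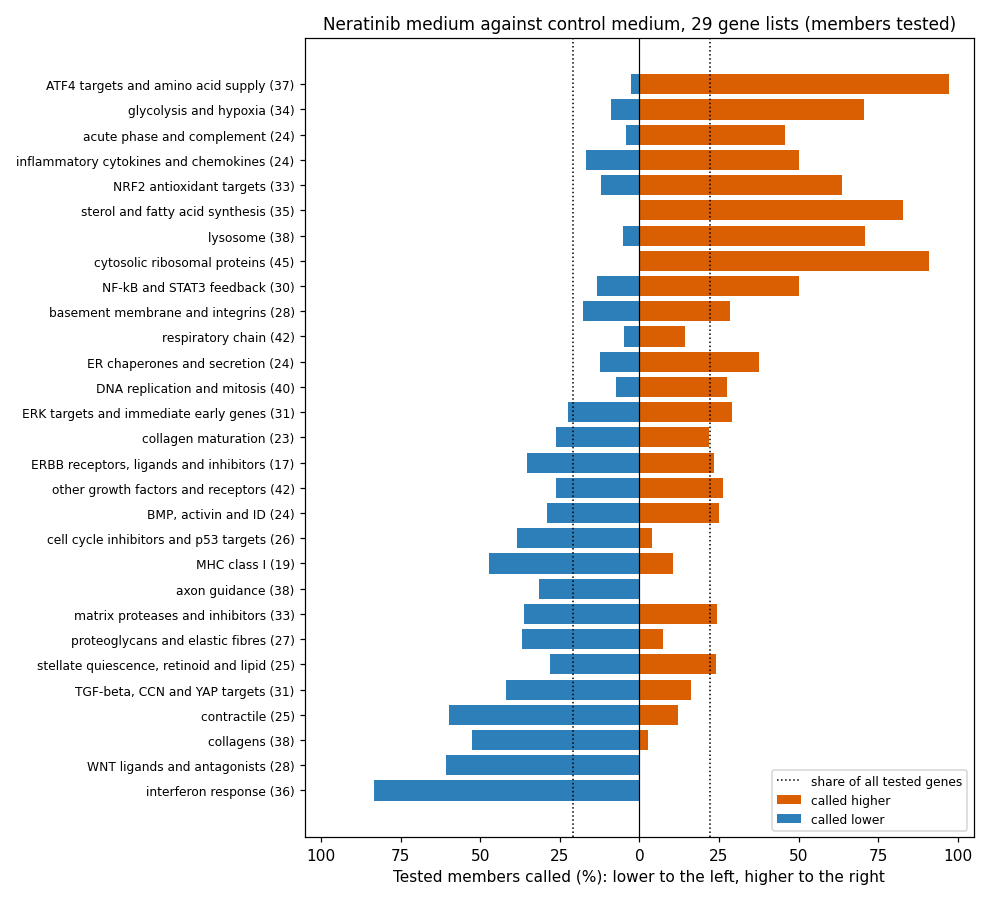
Share of the tested members of 29 gene lists that was called higher (right) or lower (left) in neratinib medium than in control medium, in percent, ordered by the median log2 fold change of the list. Dotted lines mark the shares of all tested genes, 22.2% higher and 20.9% lower, and the ATF4 and the interferon lists are at the 2 ends.

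The cells in neratinib medium had high levels of inflammatory transcripts. Of 24 tested cytokines and chemokines, 12 rose and 4 fell (median log2 fold change 0.90, against 0.0046 over all tested genes). Il6 (ENSMUSG00000025746, chromosome 5, 30013114 to 30019981 on GRCm38, as all positions here) codes for interleukin-6, which signals through gp130 and STAT3. It had 48.5, 31.9, 51.6 and 19.2 CPM in the neratinib libraries, in the order given above, and 1.15, 2.29, 2.47, 1.08 and 1.77 CPM in control, in the order PSC4 replicates 1 to 3 and PSC5 replicates 1 and 2. All 4 neratinib values were above all control values (log2 fold change 4.46, SE 0.43, adjusted p 5.42e-06). Csf3 (ENSMUSG00000038067, chromosome 11, 98701263 to 98703629), the granulocyte colony-stimulating factor, had 27.6, 13.1, 20.5 and 10.3 CPM with neratinib and 3 counts or fewer in every control library. It was at least 164-fold higher, taking 3 counts in each control library as a floor (adjusted p 6.86e-07). The neutrophil chemokine Cxcl1 had 144, 55.9, 206 and 67.4 CPM against 11.2, 9.51, 9.55, 9.38 and 9.50 CPM, and no neratinib library came near the control range (log2 fold change 3.56, SE 0.41, adjusted p 2.18e-05). Il1a, interleukin-1 alpha, was at low levels, with 0.213 to 2.12 CPM against 0 counts in control, at least 9.41-fold. Lif, a gp130 cytokine, rose as well (log2 fold change 1.59, SE 0.41, adjusted p 0.00661), but without the neratinib library labelled PSC4 replicate 1 its adjusted p was 0.0575. Cxcl5, Cxcl3, Il33, Ccl20, Ptgs2, Ccl7 and Ccl2 rose by 3.08, 2.07, 2.00, 1.98, 1.66, 0.66 and 0.56. The 4 that fell were Cx3cl1 (-2.27, SE 0.39), a membrane-bound chemokine, Ccl11 (-2.23, SE 0.78), Tslp (-1.86, SE 0.28) and Csf1 (-0.54, SE 0.11), the macrophage growth factor. In bulk RNA, fewer cells of a type and less RNA per cell cannot be told apart.

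In the library labelled PSC4 replicate 1 with neratinib, where Krt8 was at 0, Il6 and Csf3 were at 48.5 and 27.6 CPM, within or above the range of the other neratinib libraries. The mean log2 level of the cytokine list relative to the control mean was 0.47 there, and 0.33 to 1.13 in the others. For the acute phase and complement list it was 0.34, the lowest of the neratinib libraries and within the control range. With the T8 media alone, the log2 fold changes were 4.87 for Il6, 8.75 for Csf3, 4.13 for Cxcl1 and 5.96 for Lcn2, with adjusted p of 5.25e-05, 1.04e-05, 1.24e-05 and 9.04e-05.

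The acute phase and complement genes moved in the same direction, with 11 of 24 higher and 1 lower (median 0.98). The mean log2 level of the list relative to the control mean was 0.34, 1.42, 1.66 and 0.57 in the neratinib libraries, in the order given above. In control it was -0.27 to 0.35, so that as a list the library labelled PSC4 replicate 1 overlapped control. With T8 alone 7 rose. The count was 6 without neratinib PSC4 replicate 2, neratinib PSC5 replicate 1 or control PSC5 replicate 2, and 7 without control PSC4 replicate 3 or control PSC5 replicate 1. Saa3 (ENSMUSG00000040026, chromosome 7, 46711998 to 46715700), a serum amyloid A made by fibroblasts and macrophages, had 2169, 4569.8, 7069.8 and 1179 CPM in neratinib medium and 17, 76, 140.0, 11.4 and 17.3 CPM in control. All neratinib libraries were above all control libraries, and within control the PSC4 replicates 2 and 3 were the highest (log2 fold change 6.51, SE 0.84, adjusted p 5.21e-05). Lcn2 (ENSMUSG00000026822, chromosome 2, 32384633 to 32388252), lipocalin-2, a binder of bacterial siderophores, had 152, 145, 217 and 104 CPM against 1.23, 4.65, 5.22, 0.934 and 2.55 CPM. The groups were far apart (log2 fold change 5.74, SE 0.49, adjusted p 2.04e-06). Haptoglobin, Hp, had 149, 759, 813 and 163 CPM against 7.99, 32.4, 60.2, 4.63 and 9.15 CPM, with both T8 and T6 libraries on each side of the group mean (log2 fold change 4.77, SE 0.82, adjusted p 4.38e-04). Saa1, Saa2 and Saa4 rose by 4.96, 3.32 and 2.47, and the complement genes Cfb and C3 by 1.96 and 1.47. Reads of Saa1 and Saa2, which are nearly identical, may be split between them. Masp1, a protease of the lectin pathway, was the member that fell (-1.33, SE 0.25).

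Of 30 tested genes of NF-kB and STAT3 feedback, 15 rose and 4 fell (median 0.44). Zc3h12a, an RNase that degrades cytokine mRNA, had 35.4 ± 12.7 CPM (SD, n = 4) against 9.58 ± 0.855 (SD, n = 5; log2 fold change 1.86, SE 0.23, adjusted p 3.19e-05). Bcl3, a nuclear partner of NF-kB p50 and p52, rose too (log2 fold change 1.48, SE 0.17, adjusted p 2.07e-05), and so did Nfkbiz (1.38, SE 0.18), Cebpd (1.34, SE 0.35), Cebpb (1.27, SE 0.18) and Socs3 (0.83, SE 0.19). The genes lower than in control were Traf1 (-1.65, SE 0.47), Nfkbie (-0.82, SE 0.25), Il6ra (-0.64, SE 0.11) and Socs1 (-0.56, SE 0.17). With T8 alone 1 of these 4 was still called lower, Il6ra (adjusted p 0.0210), and Nfkbie, for example, was not (adjusted p 0.125).

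**Figure D3:**
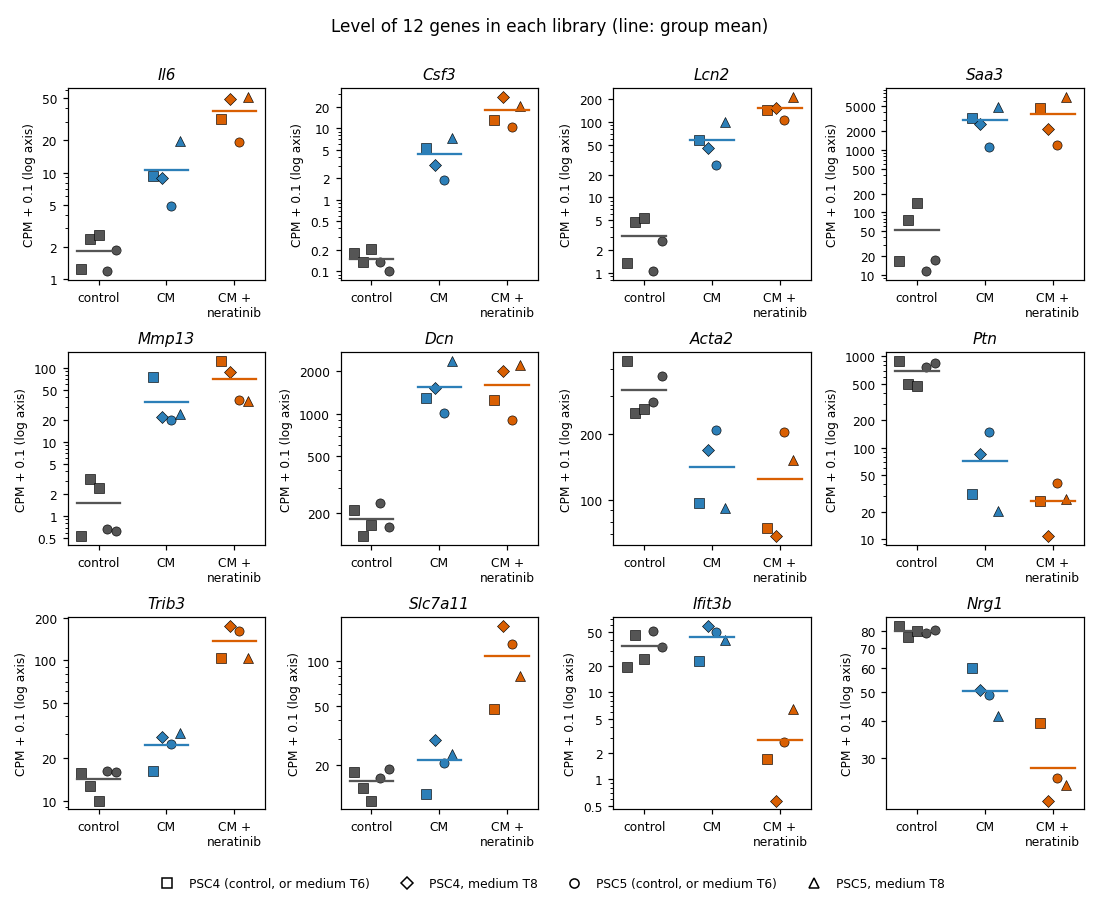
Level of 12 genes in each control, CM and neratinib library, in CPM plus 0.1 on a log axis, with a line at each group mean. Il6, Csf3, Lcn2, Saa3, Mmp13, Dcn, Trib3 and Slc7a11 are higher in all 4 neratinib libraries than in all 5 control libraries, and Acta2, Ptn, Ifit3b and Nrg1 are lower in all 4.

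Genes of the contractile state were mostly lower. Of 25 tested, 15 fell and 3 rose (median -0.75). The summed markers of pericytes and smooth muscle were also lower, at 26.1 to 77.9 CPM with neratinib against 96.5 to 154 CPM in control, with no overlap, and of the 6 tested 2 fell (Notch3, -1.47, SE 0.36, and Mcam, -0.73, SE 0.19, which is in both lists) and 0 rose. Their part in the result was not tested. Acta2 (ENSMUSG00000035783, chromosome 19, 34241090 to 34255590), smooth muscle alpha-actin and the usual marker of myofibroblasts, had 68.5, 74.8, 152 and 205 CPM with neratinib and 432, 249.6, 261, 280.2 and 371 CPM in control. No neratinib library reached the lowest control library (log2 fold change -1.48, SE 0.30, adjusted p 0.00147). The actin-binding protein Tagln had 36.3, 32.3, 81.4 and 88 CPM against 239.8, 108, 108, 166 and 203 CPM and was also lower in all 4 (log2 fold change -1.66, SE 0.30, adjusted p 6.49e-04). Lmod1 (-2.16, SE 0.36) and Mylk (-1.85, SE 0.43), a nucleator of actin filaments and the myosin light chain kinase, had the largest falls above the expression limit for naming, and Cnn1, Myl9, Tpm1 and Tpm2 fell (log2 fold changes -1.83, -1.57, -0.97 and -0.75). The 3 that rose were Tagln2 (1.10, SE 0.17), Pdlim7 (0.43, SE 0.13) and Tpm4 (0.31, SE 0.07), and Pdlim7 had an adjusted p of 0.0663 without the neratinib library labelled PSC4 replicate 1. Des had a log2 fold change of -0.49 (adjusted p 0.375), which was not called.

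Of 31 tested genes of the TGF-beta, CCN and YAP list, 13 fell and 5 rose (median -0.54). Ccn3, a matricellular protein, fell and had 60.2 ± 5.81 CPM (SD, n = 4) with neratinib and 404 ± 73.1 CPM (SD, n = 5) in control (log2 fold change -2.75, SE 0.45, adjusted p 2.91e-04). Thbs1, Itga11, Fn1 and Tgfb3 fell (log2 fold changes -1.82, -3.22, -1.06 and -1.30). Postn, periostin, was called lower (-2.60, SE 0.91, adjusted p 0.0323) but not with T8 alone (adjusted p 0.147), and its control libraries were widely spread (196 to 1174 CPM). The call was also lost without neratinib PSC5 replicate 2, control PSC4 replicate 2 or 3, or control PSC5 replicate 1. Tgfbr1, the type I receptor, rose (1.12, SE 0.20), as did the feedback inhibitor Skil (0.97, SE 0.17) and Tgfb1 (0.83, SE 0.18). Ccn2, a direct target of TGF-beta and YAP, had 33.1 ± 15 CPM against 53.2 ± 11.7 CPM and was not called (log2 fold change -0.66, SE 0.31, adjusted p 0.102). Tnc was not called either (log2 fold change 0.61, SE 0.26, adjusted p 0.0661). In the BMP, activin and ID list 6 of 24 rose and 7 fell (25% and 29.2%, against 22.2% and 20.9% of all tested genes). With T8 alone 1 rose, without neratinib PSC5 replicate 1 3 rose, and without neratinib PSC4 replicate 1 4 fell. Inhba rose (1.04, SE 0.19) while Inhbb fell (-1.98, SE 0.47), Id4 fell (-1.87, SE 0.46) and Bmp4 fell (-2.48, SE 0.84).

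Collagen transcripts were lower as a group: 20 of 38 tested fell and 1 rose (median -1.05). Col1a1, the main fibrillar collagen chain, had 422, 1045, 1671 and 793 CPM in neratinib medium and 2093, 1468, 1353, 1974 and 1865 CPM in control. The groups overlapped, since PSC5 replicate 1 with neratinib lay above the PSC4 replicates 2 and 3 of control, and the call (log2 fold change -0.88, SE 0.29, adjusted p 0.0242) was lost in 5 of 20 alternatives, among them without neratinib PSC4 replicate 1 or neratinib PSC5 replicate 2. The chains of collagen VI, which forms beaded filaments, fell further, with -1.48 for Col6a1, -1.98 for Col6a2 and -1.82 for Col6a3. Col11a1 (-2.04, SE 0.34) and Col12a1 (-1.88, SE 0.39), Col5a1 (-1.44, SE 0.20) and Col3a1 (-1.11, SE 0.39) fell too. Col11a2 (ENSMUSG00000024330, chromosome 17, 34039437 to 34066685), the alpha-2 chain of collagen XI, was the only list member called higher: it had 38.4, 16.6, 10.5 and 21 CPM against 2.38, 3.36, 2.57, 1.76 and 2.38 CPM, and every neratinib library was above every control library (log2 fold change 3.14, SE 0.26, adjusted p 1.41e-06). The basement membrane chains Col4a1 and Col4a2 had log2 fold changes of 0.33 and 0.36 and were not called. Among 23 genes of collagen maturation 5 rose and 6 fell (3 without neratinib PSC4 replicate 1). These shares of 21.7% and 26.1% were near the 22.2% and 20.9% of all tested genes. The prolyl 4-hydroxylases P4ha1 (0.98, SE 0.13) and P4ha2 (1.04, SE 0.25) were higher and the prolyl 3-hydroxylase P3h2 (-2.10, SE 0.41) lower. Lox, a lysyl oxidase, was called lower (-1.05, SE 0.36) but lost its call in 7 of 20 alternatives, among them without neratinib PSC4 replicate 1, neratinib PSC5 replicate 2, control PSC4 replicate 3 or control PSC5 replicate 1.

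Proteoglycans and elastic fibre genes were mostly lower or not called, with 10 of 27 lower and 2 higher (37% and 7.41%, against 20.9% and 22.2% of all tested genes). Fmod (ENSMUSG00000041559, chromosome 1, 134037254 to 134048277), fibromodulin, a small leucine-rich proteoglycan of collagen fibrils, had 0, 2.80, 0.735 and 0.550 CPM with neratinib and 17.1, 67.4, 88.5, 23.8 and 11.7 CPM in control. Its control levels were highest in PSC4 replicates 2 and 3, and all neratinib libraries were below all control libraries (log2 fold change -5.22, SE 0.80, adjusted p 1.83e-04). Dcn (ENSMUSG00000019929, chromosome 10, 97479609 to 97518143), decorin, a related proteoglycan, went the other way, with 1989, 1238, 2203 and 901 CPM against 209.9, 137, 165, 233 and 159 CPM, and the groups were far apart (log2 fold change 3.10, SE 0.41, adjusted p 6.45e-05). Omd, Ogn, Fbn2 and Mfap2 fell (log2 fold changes -4.35, -2.55, -4.11 and -2.71), whereas Lum and Bgn, with 0.49 and -0.05, were not called.

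Of 33 tested matrix proteases and inhibitors, 8 rose and 12 fell (24.2% and 36.4%, against 22.2% and 20.9% of all tested genes). Mmp13 (ENSMUSG00000050578, chromosome 9, 7272514 to 7283331), a collagenase, had 88.5, 123, 35.9 and 36.9 CPM against 0.437, 3.11, 2.33, 0.575 and 0.532 CPM. Every neratinib library was above every control library, PSC4 most (log2 fold change 5.82, SE 0.45, adjusted p 9.60e-07). Mmp3, stromelysin-1, rose (log2 fold change 2.66, SE 0.26, adjusted p 5.16e-06), as did Mmp10 (2.00, SE 0.35), Ctsk (1.70, SE 0.34) and Timp1 (0.92, SE 0.26). Timp3 (-2.18, SE 0.41), Adamts1 (-1.44, SE 0.27) and Timp2 (-0.54, SE 0.11) fell. In the basement membrane and integrin list 8 of 28 rose and 5 fell (3 without neratinib PSC4 replicate 1). The shares of 28.6% and 17.9% were not far from those of all tested genes. Several of the rises went along with the epithelial transcripts. Lamb3 had 0.213, 2.80, 0.865 and 7.06 CPM in the order above and Itgb6 0.0851, 1.98, 0.778 and 3.16 CPM, both highest in the T6 libraries. Control had 0.0355 to 0.250 CPM of Lamb3 and 0.0355 to 0.176 CPM of Itgb6. The part of the epithelial transcripts in this was not tested. Itgb7 was highest in the library labelled PSC4 replicate 1, in a range of 2.49 to 49.1 CPM, and without that library its adjusted p was 0.0761.

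Some secreted growth factors and WNT genes were among the largest falls. Ptn (ENSMUSG00000029838, chromosome 6, 36714929 to 36810220), pleiotrophin, a heparin-binding growth factor, had 10.8, 26.4, 27.7 and 40.9 CPM in neratinib medium and 888, 504, 470.1, 769 and 839 CPM in control. The groups were far apart, and PSC5 replicate 2 had the highest of the low neratinib values (log2 fold change -4.81, SE 0.59, adjusted p 3.53e-05). Igfbp2 (log2 fold change -4.25, SE 0.58, adjusted p 8.33e-05) and Igf2 (-4.74, SE 0.61) fell too, as did Igfbp5 (-2.55, SE 0.39). Igf2 was at low levels, with means of 0.255 CPM with neratinib and 7.81 CPM in control. Higher were Angptl4 (log2 fold change 2.16, SE 0.23, adjusted p 1.01e-05), a lipase inhibitor, Fgf10 (1.23, SE 0.19), Vegfa (1.07, SE 0.14), Gdnf (1.22, SE 0.29) and Fgf21 (2.56, SE 0.46). Of the 42 tested growth factors and receptors, 11 rose and 11 fell. These shares of 26.2% each were near the 22.2% and 20.9% of all tested genes. Of 28 WNT ligands, antagonists and targets, 17 fell and 0 rose (median -1.19). Dkk2 (ENSMUSG00000028031, chromosome 3, 132085292 to 132180304), a secreted modulator of the WNT co-receptors, had 0.170, 4.01, 0.735 and 0.321 CPM against 18.6, 62, 73.8, 17.6 and 19.2 CPM, with no overlap (log2 fold change -4.75, SE 0.69, adjusted p 1.19e-04). Axin2, the common target of beta-catenin, had 0.638, 1.71, 1.73 and 1.15 CPM against 5.64, 6.58, 10.2, 4.99 and 3.72 CPM (log2 fold change -2.13, SE 0.31, adjusted p 1.24e-04), and the neratinib libraries were all lower. Wnt2b, Wnt4, Sfrp4 and Dkk3 fell (log2 fold changes -2.30, -2.23, -2.21 and -1.75). With T8 alone 10 of the WNT members were called lower.

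The remaining large falls by the naming rule were in Scn7a (log2 fold change -5.16, SE 0.79, adjusted p 1.88e-04), a sodium channel, Il31ra (log2 fold change -4.69, SE 0.63, adjusted p 6.78e-05), a cytokine receptor subunit, Mest (log2 fold change -4.57, SE 0.68, adjusted p 1.55e-04), an imprinted hydrolase, Pamr1 (-4.47, SE 0.71), Osr2 (-4.12, SE 0.84), a transcription factor, and Ndnf (-4.09, SE 0.87). Scn7a had 0.0426, 0.584, 1.04 and 0.412 CPM against 19.4, 11.6, 14, 23.1 and 17 CPM, and all neratinib libraries were below all control libraries. Among the largest rises, Car6, P2rx3 and Cox6a2 are described with the second comparison.

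The ERBB receptors, ligands and inhibitors did not move in 1 direction, with 4 of 17 higher and 6 lower (median -0.11). The shares were 23.5% and 35.3%, against 22.2% and 20.9% of all tested genes. Egfr, the receptor of the epidermal growth factor family, had 245, 251, 397 and 272 CPM against 206, 119, 109, 183 and 209 CPM. All 4 neratinib libraries were above all control libraries, among which PSC4 replicates 2 and 3 were lowest (log2 fold change 0.77, SE 0.18, adjusted p 0.00358). Erbb2 was slightly lower (log2 fold change -0.29, SE 0.08, adjusted p 0.0125), a call lost in 2 of 20 alternatives, both of which leave out the neratinib library labelled PSC4 replicate 1. Erbb3 had 2.93 ± 1.43 CPM (SD, n = 4) against 3.11 ± 0.530 CPM (SD, n = 5) and was not called (log2 fold change -0.11, SE 0.28, adjusted p 0.779). Of the ligands, Ereg, epiregulin, rose (93, 59.9, 89.1 and 61 against 23.9, 27.1, 26.5, 21.5 and 24.2 CPM, with no overlap, log2 fold change 1.62, SE 0.20, adjusted p 3.80e-05). Nrg1 (ENSMUSG00000062991, chromosome 8, 31814551 to 32884029), the neuregulin that binds ERBB3 and ERBB4, fell (21.4, 39, 24.2 and 25.5 against 83.3, 76.2, 80.3, 78.4 and 80.3 CPM, log2 fold change -1.53, SE 0.20, adjusted p 4.74e-05), and all neratinib libraries were below all control libraries. Areg (log2 fold change 0.67, SE 0.33, adjusted p 0.113) and Hbegf (log2 fold change -0.43, SE 0.27, adjusted p 0.210) were not called. With the replicate block, Hbegf was called lower (-0.54). Errfi1, a feedback inhibitor of EGFR that is made when the receptor signals, had 109, 106, 151 and 144 CPM against 220.4, 168, 155, 209.6 and 245 CPM. All 4 neratinib libraries were lower (log2 fold change -0.70, SE 0.12, adjusted p 5.22e-04). In CM without the inhibitor the same gene had 301, 228, 311 and 312 CPM.

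Targets of ERK did not move as 1 group. Of 31 tested, 9 rose and 7 fell (median 0.01), and 3 fell with T8 alone and 4 without neratinib PSC5 replicate 2. The shares of 29% and 22.6% were not far from the 22.2% and 20.9% of all tested genes. Egr3 (-2.03, SE 0.32), Egr2 (-1.23, SE 0.39), Egr1 (-0.77, SE 0.15) and Fos (-0.76, SE 0.26), immediate early transcription factors, fell, as did Spry1 (-1.24, SE 0.29) and Dusp5 (-0.81, SE 0.29), inhibitors of the pathway. Ier3 (1.42, SE 0.24), Etv1 (0.97, SE 0.22), Fosl1 (0.96, SE 0.22) and Etv4 (0.63, SE 0.16) rose. Dusp6 (log2 fold change 0.18, SE 0.14, adjusted p 0.332), Spry4 (log2 fold change -0.35, SE 0.15, adjusted p 0.0733) and Phlda1 (log2 fold change 0.49, SE 0.21, adjusted p 0.0676) were not called. With the replicate block, Phlda1 was called higher (0.55).

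The ATF4 and amino acid list was the most uniform. Of 37 tested members, 36 rose and 1 fell (median 1.45), and this count was the same in all 20 alternatives. Trib3 (ENSMUSG00000032715, chromosome 2, 152337422 to 152344032), a pseudokinase that ATF4 induces, had 176, 104, 104 and 163 CPM in neratinib medium and 15.5, 12.6, 9.87, 16.2 and 16 CPM in control. No neratinib library came near the control range (log2 fold change 3.28, SE 0.20, adjusted p 1.89e-07). Slc7a11 (ENSMUSG00000027737, chromosome 3, 49892526 to 50443614), the cystine transporter whose promoter with 2 C/EBP-ATF matches is printed above, had 172, 47.4, 79.2 and 130.4 CPM against 17.8, 14, 11.5, 16.3 and 18.7 CPM, with no overlap (log2 fold change 2.77, SE 0.31, adjusted p 1.69e-05). Asns (ENSMUSG00000029752, chromosome 6, 7675169 to 7693254), asparagine synthetase, had 441, 315, 298 and 413 CPM against 99.4, 75.1, 66.6, 84.1 and 93 CPM, and again all 4 libraries were higher (log2 fold change 2.13, SE 0.15, adjusted p 5.26e-07). Atf4 itself had 1002, 649, 739.6 and 832 CPM against 309, 244, 262, 280.4 and 281 CPM (log2 fold change 1.55, SE 0.12, adjusted p 8.64e-07). Stc2, stanniocalcin-2, had 44.1, 47.9, 38.6 and 36.9 CPM against 5.29, 8.05, 9.69, 3.41 and 4.15 CPM (log2 fold change 2.86, SE 0.23, adjusted p 1.19e-06). The remaining members cover the steps of the pathway. Serine and one-carbon enzymes rose, among them Phgdh (1.45), Psph (1.97), Shmt2 (1.82), Mthfd2 (1.65) and Aldh1l2 (1.72). Amino acid transporters rose, among them Slc7a3 (2.49), Slc7a1 (1.73) and Slc3a2 (1.53), and so did the tRNA synthetases Sars (1.25), Nars (1.26) and Gars (1.24). Chac1 (2.42), which degrades glutathione, and Cth (2.86), which makes cysteine, rose too. Ddit3 (0.82), the factor CHOP, and Ppp1r15a (1.06), which recruits the phosphatase of eIF2-alpha, rose less. The gene that fell was Cbs (-1.44, SE 0.28), cystathionine beta-synthase, at 0.809 to 2.29 CPM against 3.52 to 5.67 CPM.

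Chaperones of the endoplasmic reticulum, which answer to other arms of the unfolded protein response, changed less: 9 of 24 rose and 3 fell (median 0.10). Herpud1 (log2 fold change 0.95, SE 0.09, adjusted p 5.65e-06) and Sel1l (0.53, SE 0.07), of the degradation machinery, rose. Hspa5, the chaperone BiP, had a log2 fold change of -0.02 (adjusted p 0.732) and Hsp90b1 of -0.11 (adjusted p 0.103), and neither was called.

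Cytosolic ribosomal proteins rose in 41 of 45 cases and fell in 0, by modest amounts (median 0.45). Rps4x (ENSMUSG00000031320, chromosome X, 102184941 to 102189394) had 1141, 1037, 841 and 1180.0 CPM against 722, 599, 609.8, 760.1 and 707 CPM. All 4 neratinib libraries were above all control libraries, by the least in PSC5 replicate 1 (log2 fold change 0.63, SE 0.10, adjusted p 2.03e-04). Rpl10 rose most (log2 fold change 0.85, SE 0.13, adjusted p 2.16e-04), and Rpl5 (-0.09, adjusted p 0.379) was the member with a value below 0. The mean log2 level of the list relative to the control mean was 0.62, 0.29, 0.23 and 0.65 in the neratinib libraries, in the order above, and 0.14, -0.21, -0.21, 0.15 and 0.14 in control. All 4 neratinib libraries were above all controls, PSC5 replicate 1 by the least, and the controls of PSC4 replicates 2 and 3 were the lowest. With T8 alone 29 members were called higher. Many ribosomal genes have processed pseudogenes that can share their reads.

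Of 33 tested targets of NRF2, the regulator of the antioxidant response, 21 rose and 4 fell (median 0.58). Hmox1 (ENSMUSG00000005413, chromosome 8, 75093621 to 75100589), heme oxygenase-1, had 1565, 554, 335 and 856 CPM against 224, 201, 226, 203 and 184 CPM, highest in the library labelled PSC4 replicate 1 and above all controls in all 4 (log2 fold change 1.99, SE 0.27, adjusted p 8.31e-05). Txnrd1 (1.16, SE 0.19), Srxn1 (0.80, SE 0.16), Gclm (0.58, SE 0.10) and Fth1 (0.91, SE 0.13) rose. Nqo1, a classical target, was at 0.21 (adjusted p 0.562) and was not called, and the glutathione transferases Gstm1 (-0.74, SE 0.11) and Gstm2 (-0.49, SE 0.10) fell. Gpx2, which epithelia express, had 0, 0.934, 0.259 and 2.57 CPM and followed the T6 medium.

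**Figure D4:**
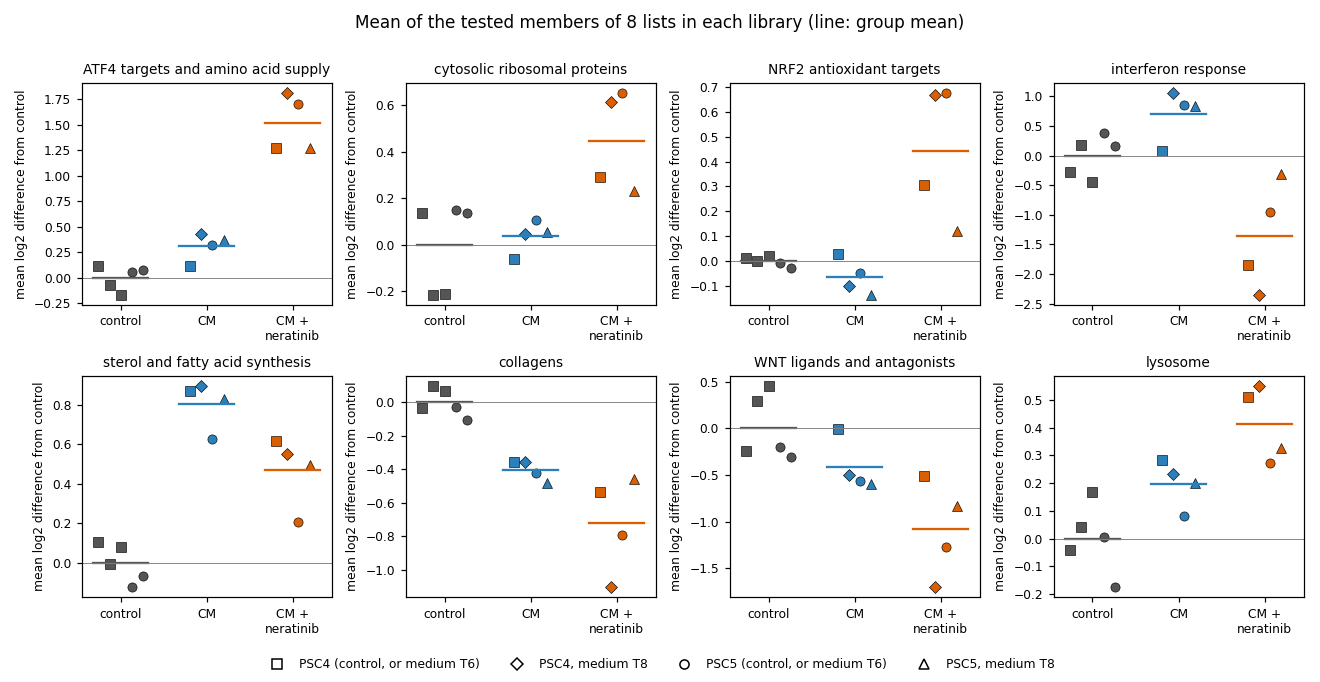
Mean difference from the control mean over the tested members of 8 gene lists, in log2 of CPM plus 1, for each control, CM and neratinib library, with lines at group means. The ATF4 list is between 1.27 and 1.81 in the neratinib libraries and at most 0.43 in CM, while the interferon list is below 0 in all 4 neratinib libraries.

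Interferon response genes were lower. Of 36 tested, 30 fell and 0 rose (median -1.37), 15 with T8 alone. Ifit3b (ENSMUSG00000062488, chromosome 19, 34607970 to 34613401), an interferon-induced protein whose promoter with 2 ISRE matches is printed above, had 0.468, 1.60, 6.31 and 2.57 CPM with neratinib and 19.3, 45.3, 24.4, 50.2 and 32.8 CPM in control. The highest neratinib library, PSC5 replicate 1, was still below the lowest control library (log2 fold change -3.72, SE 0.56, adjusted p 1.72e-04). Mx1, a GTPase that blocks viruses, had 0.426, 0.700, 3.98 and 1.10 CPM against 7.83, 15.8, 7.12, 15.2 and 11.5 CPM (log2 fold change -3.01, SE 0.56, adjusted p 7.44e-04). It was lowest in the library labelled PSC4 replicate 1 and highest, but below every control, in PSC5 replicate 1. Isg15 (ENSMUSG00000035692, chromosome 4, 156199424 to 156200818), a ubiquitin-like protein, had 20.3, 22.6, 101 and 64.7 CPM against 108, 151, 96.2, 190.3 and 142 CPM (log2 fold change -1.61, SE 0.34, adjusted p 0.00186), and here PSC5 replicate 1 lay within the control range. Irf7, Ifit1, Oasl2 and Ddx58 fell (log2 fold changes -1.81, -1.78, -1.45 and -1.34). The mean level of the list relative to control was -2.35, -1.84, -0.30 and -0.95 in the neratinib libraries and -0.45 to 0.38 in control, so that as a list PSC5 replicate 1 overlapped control. Oas1a, Oas1g and the other Oas genes, and Ifit3 and Ifit3b, are near copies that may share reads.

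The class I antigen presentation list had 9 of 19 members lower and 2 higher (median -0.36). Psmb9 (-1.57, SE 0.32) and Psmb8 (-1.21, SE 0.35), subunits of the immunoproteasome, fell, with Tap1 (-1.02, SE 0.30), the peptide transporter, and H2-K1 (-0.72, SE 0.28). H2-Q6 fell (-1.74, SE 0.40) and is a near copy of H2-Q7 (-1.15, SE 0.36), so their reads may be shared. Erap1 and Canx were the 2 called higher (0.38 and 0.38), and Canx lost its call in 6 of 20 alternatives. B2m was at -0.02 and was not called, and with T8 alone 3 members were called lower.

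Sterol and fatty acid synthesis genes were higher than in control: 29 of 35 rose and 0 fell (median 0.55). Msmo1 (ENSMUSG00000031604, chromosome 8, 64718139 to 64733792), a sterol methyl oxidase, had 240.2, 253, 184 and 150.0 CPM against 116, 112, 134, 89.3 and 97.7 CPM, with no overlap (log2 fold change 0.94, SE 0.10, adjusted p 9.01e-06). Fdps, which makes farnesyl diphosphate, rose (log2 fold change 0.90, SE 0.10, adjusted p 1.39e-05), and so did Fasn (0.87, SE 0.16), the fatty acid synthase. Lysosomal genes rose in 27 of 38 cases and fell in 2 (median 0.45). Ctsl (ENSMUSG00000021477, chromosome 13, 64359337 to 64370890), cathepsin L, had 2223, 2137, 1669 and 1669 CPM against 635, 782, 883, 727 and 588 CPM, with no overlap (log2 fold change 1.43, SE 0.10, adjusted p 5.38e-07). Gla, alpha-galactosidase A, had 244, 205, 143 and 142 CPM against 55.6, 53.3, 68.4, 55.6 and 40.6 CPM (log2 fold change 1.76, SE 0.14, adjusted p 1.11e-06), again apart. Ctsb (0.86), Npc1 (0.82), Psap (0.74) and the proton pump subunit Atp6v1b2 (0.92) rose. Tfeb (-0.40, SE 0.12), a regulator of lysosomal genes, and Ctsf (-1.12, SE 0.24) fell.

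Glycolysis and hypoxia genes were called higher in 24 of 34 cases and lower in 3 (median 1.14). Slc16a3 (ENSMUSG00000025161, chromosome 11, 120948480 to 120960868), a lactate exporter, had 58.1, 41.4, 72.4 and 32.9 CPM against 5.05, 3.75, 5.67, 4.89 and 4.22 CPM, and every neratinib library was above every control library (log2 fold change 3.40, SE 0.42, adjusted p 3.85e-05). Hif1a, the oxygen-regulated factor, had 632, 617, 648 and 452 CPM against 163, 166, 191, 156 and 150.2 CPM (log2 fold change 1.85, SE 0.14, adjusted p 8.64e-07). The monocarboxylate transporter Slc16a1 (log2 fold change 1.95, SE 0.15, adjusted p 8.64e-07) and the enzymes Hk2 (1.72, SE 0.17), Ldha (1.30, SE 0.16), Pgk1 (1.23, SE 0.19) and Pfkl (1.47, SE 0.21) rose, whereas Eno2 (-0.52, SE 0.09), Pfkfb4 (-0.48, SE 0.09) and Pfkm (-0.23, SE 0.07) fell. Respiratory chain genes changed little, with 6 of 42 higher and 2 lower, a share of calls under that of all genes. Without neratinib PSC5 replicate 1, 13 were called higher.

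Cell cycle genes were near control. Of 40 replication and mitosis genes, 11 rose and 3 fell (median 0.06), and the largest rise was 0.51 (Cdc45). The shares were 27.5% and 7.5%, against 22.2% and 20.9% of all tested genes. Mki67, the Ki-67 antigen of dividing cells, had 378 ± 36.7 CPM (SD, n = 4) against 413 ± 37.1 CPM (SD, n = 5) and was not called (log2 fold change -0.11, SE 0.10, adjusted p 0.371). Of 26 inhibitors and p53 targets, 10 fell and 1 rose, with Eda2r (-1.46, SE 0.45; adjusted p 0.0639 without the libraries labelled PSC4 replicate 1) and Btg2 (-1.22, SE 0.14) lower and Gadd45a (1.33, SE 0.19) higher. Among 25 retinoid and lipid genes of stellate quiescence, 6 rose and 7 fell, and 3 rose with T8 alone, where Dhrs3 had an adjusted p of 0.0502. The shares of 24% and 28% were not far from the 22.2% and 20.9% of all tested genes. Rarb (1.86, SE 0.26), Dhrs3 (1.90, SE 0.41) and Cyp26b1 (2.78, SE 0.64) rose, while Apod (-3.98, SE 0.93), Cebpa (-2.32, SE 0.51) and Stra6 (-2.06, SE 0.53) fell. Axon guidance genes were lower in 12 of 38 cases and higher in 0, with Nrp1 (log2 fold change -1.40, SE 0.20, adjusted p 1.03e-04), a semaphorin receptor, and Sema7a (-1.38, SE 0.27) named by the rule.

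The second comparison asked where conditioned medium with neratinib differed from conditioned medium alone. Called were 2850 genes (20.5%), 1509 higher with neratinib (10.8%) and 1341 lower (9.63%). This count depended on the libraries: it was 4563 with the replicate block, 1989 without the libraries labelled PSC4 replicate 1 and 187 with the T8 media alone, where 2 libraries stand against 2. It was 1782 without the CM library labelled PSC4 replicate 1, and 1748 without the neratinib library PSC5 replicate 2. Of the gene lists, those that differed most were again ATF4 and interferon. The ATF4 list had 35 of 37 members higher and 0 lower (median 1.12), 24 higher with T8 alone, and the interferon list 0 higher and 35 of 36 lower (median -2.18), 8 lower with T8 alone. Ribosomal proteins were higher in 33 of 45 cases and lower in 0, but 0 were called with T8 alone. NRF2 targets were higher in 20 of 33 and lower in 0, 2 higher with T8 alone. Class I genes were lower in 16 of 19, and 0 with T8 alone. Sterol genes were lower in 23 of 35 and higher in 0, 1 lower with T8 alone.

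The largest rises against CM, by the naming rule, were in 5 genes. Car6 (ENSMUSG00000028972, chromosome 4, 150187015 to 150201332), a secreted carbonic anhydrase, had 54.3, 12.3, 7.35 and 45.1 CPM with neratinib, 1.43, 0.776, 1.07 and 1.27 CPM in CM and 0.755, 0.894, 0.811, 1.04 and 0.816 CPM in control. All 4 neratinib libraries were above both other groups, the library labelled PSC4 replicate 1 and PSC5 replicate 2 most (log2 fold change 4.70, SE 0.53, adjusted p 1.05e-04). P2rx3 (ENSMUSG00000027071, chromosome 2, 84998583 to 85037462), an ATP-gated ion channel, had 208, 119.9, 118 and 204 CPM against 19.3, 4.02, 13.2 and 12 CPM in CM and 10.7, 3.25, 2.01, 4.81 and 7.23 CPM in control (log2 fold change 3.75, SE 0.49, adjusted p 3.07e-04). Cox6a2, the muscle form of a cytochrome oxidase subunit, had 18.6, 12.8, 5.84 and 18.7 CPM against 1.56, 0.776, 0.765 and 1.11 CPM in CM (log2 fold change 3.72, SE 0.48, adjusted p 2.40e-04), Col11a2 38.4, 16.6, 10.5 and 21 CPM against 2.04, 2.43, 1.30 and 1.68 CPM (log2 fold change 3.51, SE 0.29, adjusted p 8.61e-06), and Cdsn, corneodesmosin, 20.6, 4.98, 9.38 and 53 CPM against 2.17, 1.31, 1.99 and 2.15 CPM (log2 fold change 3.41, SE 0.55, adjusted p 0.00109). No neratinib library overlapped CM in any of these 3. The naming rule required groups apart within each line. The lack of overlap in the genes of this paragraph was thus in large part fixed by the rule. The largest falls against CM were in Ifit3b (log2 fold change -4.02, SE 0.58, adjusted p 5.25e-04), Mx1 (log2 fold change -3.83, SE 0.58, adjusted p 7.08e-04), Mest (log2 fold change -3.78, SE 0.68, adjusted p 0.00215), Tgtp1 (log2 fold change -3.76, SE 0.63, adjusted p 0.00138), an interferon-induced GTPase with the near copy Tgtp2, and Gm12250 (log2 fold change -3.64, SE 0.74, adjusted p 0.00429). Mest had 0.724, 1.48, 1.90 and 1.97 CPM with neratinib and 42.5, 6.92, 4.90 and 27.5 CPM in CM, against 27.4 to 41 CPM in control, and all neratinib libraries were below all CM libraries. With T8 alone Cox6a2, Mest, Ifit3b, Mx1 and Gm12250 were not called in this comparison.

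A few of the inflammatory genes were called higher than in CM and most were not, and the cytokine list had a median of -0.40 against CM. Il6 had 8.73, 9.17, 19.5 and 4.80 CPM in CM and was higher with neratinib (log2 fold change 1.82, SE 0.41, adjusted p 0.00717), as were Csf3 (2.92, 5.22, 7.31 and 1.78 CPM in CM, log2 fold change 2.04, SE 0.43, adjusted p 0.00506) and Lcn2 (44.6, 57.3, 101 and 27 CPM in CM, log2 fold change 1.43, SE 0.43, adjusted p 0.0311). With T8 alone these 3 were not called against CM (adjusted p 0.0870 for Il6, 0.0714 for Csf3 and 0.246 for Lcn2). Cxcl1 (log2 fold change 0.66, SE 0.40, adjusted p 0.266), Saa3 (log2 fold change 0.38, SE 0.71, adjusted p 0.750) and Hp (log2 fold change -0.23, SE 0.74, adjusted p 0.856) were not called against CM. Of the 24 cytokines 2 were higher and 3 lower against CM, and of the 24 acute phase genes 2 and 2. Of all tested genes 10.8% were called higher and 9.63% lower, so the share called higher was under that of all genes in both lists. Errfi1 was lower than in CM (log2 fold change -1.19, SE 0.13, adjusted p 8.08e-05), as was Nrg1 (log2 fold change -0.86, SE 0.20, adjusted p 0.00815), and Dusp6 was lower than in CM (log2 fold change -0.51, SE 0.15, adjusted p 0.0279) with 73.3, 88.1, 88.6 and 67.5 CPM in CM and 45, 67.9, 66.4 and 44 CPM with neratinib. With T8 alone Errfi1 was still called lower (adjusted p 0.0234), but Nrg1 (adjusted p 0.0654) and Dusp6 (adjusted p 0.105) were not, and Dusp6 had an adjusted p of 0.0856 without the libraries labelled PSC4 replicate 1. Acta2 (log2 fold change -0.27, SE 0.31, adjusted p 0.576), Col1a1 (log2 fold change -0.67, SE 0.30, adjusted p 0.128) and Ptn (log2 fold change -1.46, SE 0.53, adjusted p 0.0616) were not called against CM. Msmo1 lay between the other groups, with 288, 279, 245 and 222 CPM in CM (log2 fold change -0.34, SE 0.10, adjusted p 0.0303), a call not made with T8 alone (adjusted p 0.234) or without the libraries labelled PSC4 replicate 1 (adjusted p 0.0684), and Trib3 had 28.2, 16.1, 30.0 and 25.1 CPM in CM (log2 fold change 2.47, SE 0.21, adjusted p 1.52e-05). CM against control is given only beside these values, since the comparisons share the control libraries: there Il6 had a log2 fold change of 2.64, Saa3 of 6.14, Acta2 of -1.21, Trib3 of 0.80, Ifit3b of 0.30 and Msmo1 of 1.29, and of the lists ATF4 had 13 higher and 0 lower, interferon 5 and 0, sterol synthesis 33 and 0, and ribosomal proteins 0 and 0.

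Whether the difference between neratinib medium and control depended on the line was tested with an interaction term. No gene was called (0%, edgeR), 260 had an unadjusted p under 0.05, and DESeq2 called 2. With T8 alone, where each line has 1 neratinib library, 419 were called, and these rest on the library labelled PSC4 replicate 1 against PSC5 replicate 1. Within PSC4 and within PSC5 the log2 fold changes were 4.34 and 4.63 for Il6, 3.47 and 3.05 for Trib3, -4.82 and -3.22 for Ifit3b, -2.13 and -0.86 for Acta2 and -5.06 and -4.55 for Ptn. These values contain libraries labelled PSC4 that carry the PSC5 pattern, so the line term mixes the patterns.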

How the data were processed

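RNA-seq of 17 mouse libraries was used, 9 of them for the first comparison. The authors deposited estimated counts per Ensembl gene, which are not whole numbers in 74.8% of the values above 0. The submitters' processing notes name Salmon 1.4.0, DESeq 2, GRCm38 and mm10, without their roles. Counts were rounded to whole numbers, genes were filtered with filterByExpr (10 counts, 15 in total) and scaled with TMM, and edgeR 4.0.16 (R 4.3.3) fitted group and cell line to all 17 libraries by quasi-likelihood. All adjusted p-values are Benjamini-Hochberg values over the 13923 genes tested, and a gene is called below 0.05. Each SE is the log2 fold change divided by the square root of F. Per-library levels are CPM after TMM scaling, except the summed marker levels and the levels in the plot by medium code, which use library totals. Changes within the depth of 3 counts per library were taken as bounds. Gene positions are those of the GENCODE M21 annotation on GRCm38, and promoters come from RefSeq (GRCm38.p6).

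Alternatives were RLE and upper-quartile scaling, DESeq2 1.42.0, limma 3.58.1 (voom), other filters and thresholds, the compared groups alone, the replicate block, the libraries labelled PSC4 replicate 1 removed or counted with PSC5, and each replicate left out. The use of T8 media alone was chosen after seeing the data. The shared passage in the labels gives a pairing of libraries by line and number. Such libraries deviated together in all 22 pairs (lowest r 0.12, median 0.299), and those of the same line and another number had a median r of -0.0755. The deviations were from group means and so hold the line pattern, and r does not isolate the number. For example, the neratinib library PSC4 replicate 2 had r 0.595 with control PSC4 replicate 3 and 0.52 with control PSC4 replicate 2. Named genes were, in the first comparison, the 10 largest rises and falls among called genes whose higher group reached a mean of 10 CPM and whose groups were apart in each line, the 2 largest of each list and direction with that level, and a set named whatever its values, and, against CM, the 5 largest of each direction. The 5 largest against CM also had to be called there, to reach that level and to be apart from CM in each line. Other list members that are named were chosen after their values were seen. The members, lists and tests were chosen with earlier results of these data known. Some list members are not reported here.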

Additional observations from a re-analysis of the deposited data

Results flagged for a closer look

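Among 260 groups of 4 or 5 libraries of the named genes, 7 held a library far from the others by Dixon's test at the 95% level, 6 of them in the neratinib group and 1 in control, where chance gives about 1 in 20. The neratinib library PSC4 replicate 2 had 4.01 CPM of Dkk2 (0.170 to 0.735 in the others), 6.85 CPM of Osr2 (0.0426 to 0.735 in the others) and 3.66 CPM of Apod (0.0851 to 0.562 in the others). The neratinib library labelled PSC4 replicate 1 had 316 CPM of Ier3 (126 to 155 in the others) and 109 CPM of Cdc45 (73.2 to 77.6 in the others). The neratinib library PSC5 replicate 2 had 42.8 CPM of Eda2r (16.2 to 19.3 in the others). In control, PSC4 replicate 1 had 11.2 CPM of Cxcl1 (9.38 to 9.55 in the others).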

How the results depend on the processing

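For neratinib medium against control, the count of 5998 called genes became 3761 at an adjusted p under 0.01 and 1606 with a log2 change of at least 1, and 4952 to 6258 with 1 library left out. The labels allow a pairing of the libraries by line and number, which the correlations given above do not isolate. The fit with this replicate block called 7300 genes, 4563 against CM and 3240 for CM against control. With the replicate block, 7 cytokines (4 without it), 2 acute phase genes (1) and 5 glycolysis genes (3) were called lower, and 2 collagens (1), 1 WNT gene (0) and 3 cell cycle inhibitors (1) higher, and no other list count moved by over 1.5 times. Of the 131 named genes, the replicate block added the call of 2, Hbegf and Phlda1, against control and of 17 against CM, and ended none in either comparison. For neratinib medium against conditioned medium (CM), the 2850 called genes became 187 with T8 media alone, 602 with the compared groups alone, 1207 at the stricter threshold, 611 with a log2 change of at least 1, and 1748 to 3685 with 1 library left out. For conditioned medium against control, the 1976 genes became 2986 when those labelled PSC4 replicate 1 were set to PSC5, 1079 with T8 alone, 654 at the stricter threshold, 557 with the change limit and 801 to 1793 with 1 library left out, and with upper-quartile scaling 37.5% of the calls were higher, against 49.7%. The test of a difference between the lines called 0 genes, 2 with DESeq2, 419 with T8 alone and 0 to 1 with 1 library left out. The result Erbb3, neratinib medium against control, which was not called (log2 fold change -0.11), was 0.10 without the libraries labelled PSC4 replicate 1, 0.125 without the neratinib library of that label and 0.00114 without control PSC4 replicate 2, in a range of -0.465 to 0.125 with 1 library left out. The cause was not tested. With 4 or 5 libraries a group, and 2 conditioned media per group, genes near the floor of 3 counts have bounds and no precise fold change.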

Other observations

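Imprinted genes, a list made after values had been seen, were lower in neratinib medium than in control in 9 of 17 tested cases and higher in 0. The median log2 fold change was -0.91. Of all tested genes 20.9% were called lower and 22.2% higher. Igf2 (-4.74, SE 0.61), Mest (-4.57, SE 0.68), Dlk1 (-3.60, SE 0.48), Nnat (-3.21, SE 0.65), Peg10 (-3.17, SE 0.32) and Cdkn1c (-2.19, SE 0.40) were among the 9. Some of these were at low levels. With neratinib and in control, the means were 0.255 and 7.81 CPM for Igf2, 0.189 and 1.61 for Nnat, and 0.490 and 2.23 for Cdkn1c. Control means of Mest, Dlk1 and Peg10 were 35.2, 194 and 351 CPM. Peg3, Ndn, Grb10, Igf2r, Snrpn, Sgce, Gnas and Zdbf2 were not called.

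In the neratinib group the library labelled PSC4 replicate 1 and PSC5 replicate 2 lay above the other 2 in several lists, although they differ in line label and medium code. The mean levels relative to control were 1.81 and 1.70 for the ATF4 list against 1.27 and 1.27, 0.62 and 0.65 for ribosomal proteins against 0.29 and 0.23, and 0.67 and 0.68 for NRF2 targets against 0.31 and 0.12. These are values of single libraries, with no test.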
